A study of Mus musculus with 28 samples.

Results

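Slc17a7, Camk2a, Nrgn, Ptk2b, Arpp21, Neurod6, Neurod2 and Tbr1 are genes whose transcripts mark excitatory, glutamate-releasing neurons of the cerebral cortex. These 8 genes were taken by name from the deposited count tables, which hold 41549 named genes, and all 8 were found once each. Nuclei were sorted from motor cortex, and the 7 mice bear the numbers 17 to 23. Each animal carried AAV-Cas9-miR-124-empty on the left and AAV-Cas9-miR-124-g4 on the right, so vector and hemisphere cannot be told apart. AAV is adeno-associated virus, Cas9 is an RNA-guided DNA nuclease, and miR-124 is a microRNA abundant in neurons. All groups come from animals exposed to a Cas9 vector, and no uninjected tissue is among the samples. The nuclei came from fixed tissue and were stained for the HA tag of Cas9 and sorted, which gave 4 groups of 7 libraries, 28 in all: empty HA-negative, g4 HA-negative, empty HA-positive and g4 HA-positive. The labels name no strain, age or promoter driving Cas9.

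Excitatory cortical neurons load glutamate into synaptic vesicles with the transporter encoded by Slc17a7. Their dendritic spines respond to calcium through calmodulin, the kinase subunit encoded by Camk2a, the calmodulin-binding protein neurogranin encoded by Nrgn and the calcium-responsive tyrosine kinase encoded by Ptk2b. Arpp21 encodes a cAMP-regulated phosphoprotein that binds RNA, and Neurod6, Neurod2 and Tbr1 encode transcription factors of the excitatory lineage. Outside the cortex, Camk2a, Nrgn, Ptk2b and Arpp21 are also expressed by projection neurons of the striatum, which lies under the cortex, whereas Slc17a7 and Tbr1 are largely absent from them.

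The libraries held between 248612 and 902944 counts and 8687 to 13668 detected genes. RNA input was 40 to 2000 pg, per the labels' protocols. The HA-positive libraries with fewer than 10000 detected genes were those of animals 17, 21 and 22 with the empty vector and of animal 18 with g4. The g4 HA-positive library of animal 19 stood apart: its summed microglia markers were 336.8 CPM, against 2.74 to 46.5 in the other 6 libraries of its group, and its Xist level was 654.5 counts per 1e6 total counts, against 0 in the other 3 libraries of that animal, beside 95.2 of Y-linked transcripts. CPM here are counts scaled to library size in the usual way, with TMM factors over all 28 libraries. Results that rest on the libraries under 10000 genes, or on the g4 HA-positive one of animal 19, are given with and without them where the call changed. The g4 HA-positive group held 57 counts of the miR-124 hairpin gene Mir124a-2, in 6 of its 7 libraries, and the other groups 0, and the hairpin genes Mir124a-1 and Mir124a-3 were at 0 throughout. Mature microRNA was not measured. In bulk libraries, fewer nuclei of a type and less RNA per nucleus cannot be told apart.

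Because both vectors bear miR-124 in their names, the longest annotated 3′ UTR of each gene was searched for matches to the miR-124 seed. The letters were GTGCCTTA (8mer), GTGCCTT (7mer-m8) and TGCCTTA (7mer-A1) on the transcript strand, where an 8mer contains both shorter forms and was counted once. The 3′ UTRs of 7 of the 8 genes held 0 matches. That of Tbr1 held 1 7mer-A1 match, which began at base 987 of 1676 and is shown in capitals.
Tbr1 3′ UTR (chromosome 2, GRCm38, + strand): caatattatttTGCCTTAtttg
For comparison, 20.7% of 21028 protein-coding genes with a 3′ UTR held a match of some kind, as did 28.8% of the 6926 that had enough counts to be tested.

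Neurod2 and Neurod6 bind short sites called E-boxes. The letters CAGATG on either strand (CATCTG when read from the other) were searched in the RefSeq promoter windows of GRCm38.p6, which span 250 bases before to 50 bases after a start. Entries were matched by symbol for 6 of the 8 genes, Camk2a and Ptk2b being unmatched. Of their 14 windows, 5 held the letters, against 17.2% of all 32851 windows. Arpp21 has 9 alternative windows, of which 3 matched, and 2 of these overlap and share a match. The matches of Nrgn, Arpp21 and Neurod2, all on the - strand, are shown with the motif in capitals.
Nrgn chr9:37552936-37552965: tactccgacgtaCATCTGcctggcagtctg
Arpp21 chr9:112233408-112233437: ccaccctttcctCATCTGccttggaaccca
Arpp21 chr9:112217307-112217336: tgccatccacagCAGATGcttcatgacgga
Neurod2 chr11:98329746-98329775: agtagagagtgaCAGATGgcggcgggtccc
The windows of Slc17a7, Neurod6 and Tbr1 did not hold these letters. A match describes the sequence and does not show binding.

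An intron of Arpp21 holds the hairpin gene Mir128-2 on the same strand. Its mature product miR-128, a neuronal microRNA, is shown with its seed (bases 2 to 8) in capitals.
mmu-miR-128-3p (RefSeq, GRCm38.p6, chromosome 9, 112118644 to 112118664, - strand): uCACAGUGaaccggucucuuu
Mir128-2 had 0 counts in all 28 libraries. The antisense noncoding gene 2900079G21Rik overlaps Arpp21 exons and had 23 counts in total, and without a known strand setting the reads of this pair cannot be told apart.

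All 8 genes had enough counts to be tested in every comparison. Levels can be ranked between genes only per length, as CPM per kilobase (kb) of merged exons. In empty HA-negative nuclei, the level of Nrgn was highest at 404 ± 91.4 CPM per kb (SD, n = 7), followed by Camk2a at 66.6 ± 7.98 and Slc17a7 at 61.3 ± 13.6, a pair within each other's spread. Ptk2b followed at 23.7 ± 5.0 CPM per kb, Neurod6 at 22.9 ± 10.8 and Arpp21 at 20.5 ± 5.28, which did not differ beyond their spread. Neurod2 at 13.6 ± 6.96 and Tbr1 at 13.4 ± 4.61 CPM per kb were lowest and overlapped. In g4 HA-positive nuclei the order of the first 3 was the same, with Nrgn at 328.7 ± 64.0 CPM per kb, Camk2a at 62.6 ± 5.53 and Slc17a7 at 48.4 ± 17.7, and Arpp21 stood at 10.8 ± 0.957. The libraries hold nuclear RNA, in which unspliced transcripts can add reads that exon length does not describe.

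The first question was whether nuclei that carried Cas9 differed in these genes from nuclei of the same hemispheres that did not. Over both vectors, Arpp21 was 1.93-fold, Ptk2b 1.78-fold and Nrgn 1.32-fold lower in HA-positive nuclei, and the other 5 genes had lower estimates that did not pass the test. On the log2 scale Arpp21 fell by 0.95 ± 0.12 (SE, adjusted p 5.47e-08) and Ptk2b by 0.83 ± 0.15 (adjusted p 3.63e-05). The 3 falls were called by edgeR's quasi-likelihood test with Benjamini-Hochberg adjustment, as are all adjusted p-values below, in a fit of all 28 libraries. None of the 8 genes rose, and all 8 log2 fold changes were negative. Among all 7197 genes tested, 7.04% were called lower in this comparison, and 51.3% had a negative value. The median log2 fold change of the 8 genes was -0.46, against -0.012 for all genes tested. With the empty vector alone 1 of the 8 was called lower (3.5% of all genes), and with g4 alone 2 (3.08%). The medians were -0.60 and -0.40, against 0.012 and 0.0059 for all genes.

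**Figure D1:**
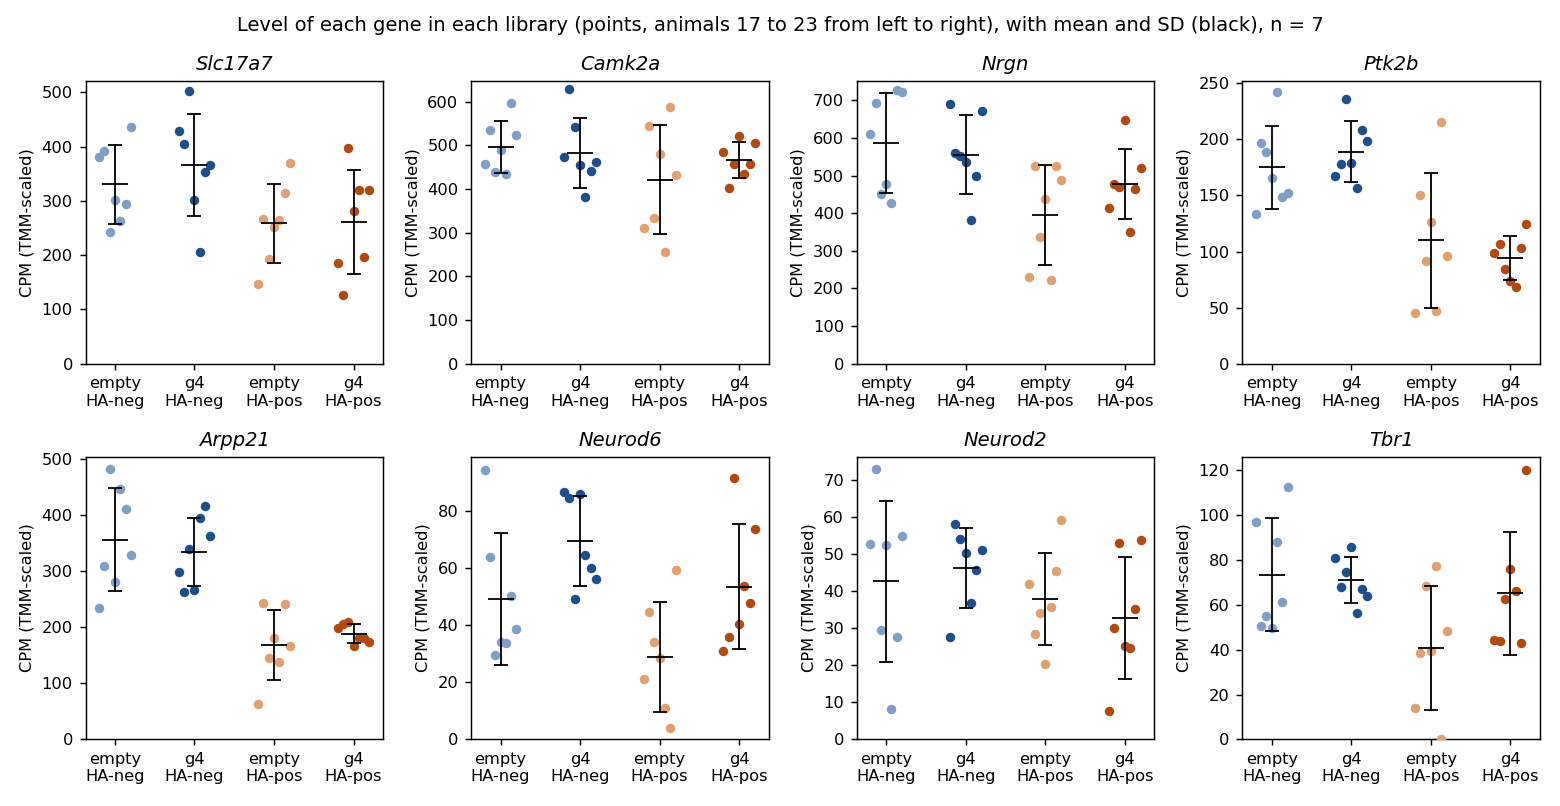
CPM (vertical axis, linear, from 0) of each gene in every library of the 4 groups; points run from animal 17 on the left to 23 on the right within a group, and black bars give mean and SD (n = 7). With g4 the HA-positive libraries of Arpp21 and Ptk2b lie below all HA-negative ones, with the empty vector those of both genes overlap, and Camk2a overlaps in all 4 groups.

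Slc17a7 (ENSMUSG00000070570, chromosome 7, 45163949 to 45176142, + strand, GRCm38 as for the other genes) encodes the vesicular glutamate transporter. In HA-negative libraries it ranged from 243.5 to 437.2 CPM with the empty vector (median 301.4) and from 205.5 to 502.3 with g4 (median 366). In HA-positive libraries it ranged from 146.8 to 370.4 CPM with the empty vector (median 265) and from 126.2 to 398.1 with g4 (median 281.4). The fractions overlapped with both vectors, although HA-positive was the lower fraction in 5 of 7 animals with the empty vector and in 6 of 7 with g4. The log2 fold change over both vectors was -0.42 ± 0.15 (SE; 95% interval -0.72 to -0.12; adjusted p 0.0622), and it passed the threshold once animal 19's g4 HA-positive library was left out (-0.48 ± 0.14, adjusted p 0.0163). It also passed by DESeq2 (adjusted p 0.0378), with no filter on low counts (0.00219) and without animal 19 (0.0329) or 21 (0.0214).

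Camk2a (ENSMUSG00000024617, chromosome 18, 60925618 to 60988152, + strand) encodes the alpha subunit of a calcium/calmodulin-dependent kinase of spines. It ranged from 434.4 to 598.4 CPM in empty HA-negative libraries (median 490.1) and from 256.7 to 589.1 in empty HA-positive ones (median 433.4). With g4 the ranges were 380.9 to 629 CPM (median 461.9) and 403.3 to 522.4 (median 458.4). The groups overlapped, and with g4 HA-positive was the higher fraction in 5 of 7 animals. The log2 fold change over both vectors was -0.14 ± 0.10, with a 95% interval of -0.34 to 0.046 and an adjusted p of 0.381.

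Nrgn (ENSMUSG00000053310, chromosome 9, 37544492 to 37552904, - strand) ranged from 427.4 to 726.2 CPM in empty HA-negative libraries (median 609.7) and from 223.6 to 525.8 in empty HA-positive ones (median 437.8). With g4 it ranged from 382.2 to 689.4 CPM (median 551.5) and from 348.8 to 648.8 (median 470.9). HA-positive was the lower fraction in 7 of 7 animals with the empty vector and in 6 of 7 with g4, with overlapping groups in both. Over both vectors Nrgn fell by 0.40 ± 0.12 on the log2 scale (SE, adjusted p 0.0266). This call was lost without the HA-positive libraries under 10000 detected genes (adjusted p 0.0627) and without animal 17 (0.116), 19 (0.0519) or 23 (0.0667). With the empty vector alone the log2 fold change was -0.56 ± 0.19 (adjusted p 0.068), and it passed with the animal as a replicate block (-0.60 ± 0.14, adjusted p 0.00974).

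Ptk2b (ENSMUSG00000059456, chromosome 14, 66153257 to 66281052, - strand) encodes a relative of the focal adhesion kinase. In g4 HA-negative libraries it ranged from 156.2 to 235.9 CPM (median 179), and in g4 HA-positive ones from 68.7 to 124.8 (median 98.6). These groups did not overlap, which held for 0.782% of all genes in this direction, and HA-positive was lower in 7 of 7 animals. Ptk2b fell by 1.02 ± 0.16 on the log2 scale with g4 (2.03-fold lower, adjusted p 5.12e-05). With the empty vector it ranged from 133.4 to 242.1 CPM (median 165.1) in HA-negative and from 45.4 to 215.5 (median 96.3) in HA-positive libraries, where animal 22 was the highest. Those groups overlapped, HA-positive was lower in 6 of 7 animals, and the log2 fold change of -0.64 ± 0.25 had an adjusted p of 0.141. Without animal 22 it was -0.94 ± 0.24 and was called (adjusted p 0.0171), and without animal 21 it was -0.41 ± 0.24. The difference between the vectors in this fraction effect was itself tested and was -0.37 ± 0.30 (adjusted p 0.996), so that a dependence on the vector was not shown.

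Arpp21 (ENSMUSG00000032503, chromosome 9, 112065091 to 112235938, - strand), the RNA-binding phosphoprotein gene, had the largest fall of the 8 over both vectors. Its level was 234.7 to 483.1 CPM (median 328.5) in empty HA-negative libraries and 62.9 to 243.3 (median 166.7) in empty HA-positive ones. HA-positive was lower in 7 of 7 animals, and the groups overlapped narrowly, since the lowest HA-negative library (animal 17) lay under the HA-positive libraries of animals 18 and 22. With g4 the level was 262.6 to 415.6 CPM (median 339.4) in HA-negative and 166.8 to 210 (median 181.3) in HA-positive libraries, without overlap and lower in 7 of 7 animals. Arpp21 fell by 1.06 ± 0.21 on the log2 scale with the empty vector (2.09-fold lower, adjusted p 0.00132) and by 0.83 ± 0.13 with g4 (1.78-fold lower, adjusted p 5.82e-05). With the empty vector 0 of the 8 genes separated the fractions without overlap, as 1.82% of all genes did in this direction. The calls of Arpp21 in all 3 fraction comparisons, and those of Ptk2b with g4 and over both vectors, were kept under every alternative run.

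The transcription factor genes had few counts. Neurod6 (ENSMUSG00000037984, chromosome 6, 55677822 to 55681263, - strand) had 2 to 88 counts per library, Neurod2 (ENSMUSG00000038255, chromosome 11, 98325415 to 98329648, - strand) 4 to 51, and Tbr1 (ENSMUSG00000035033, chromosome 2, 61802930 to 61814114, + strand) 0 to 90. The library with 0 counts of Tbr1 was that of animal 22 in the empty HA-positive group, in which 3 counts, taken as the one-sided limit that a count of 0 allows, correspond to 5.93 CPM. The 2 counts of Neurod6 in that library gave 3.95 CPM with a two-sided exact Clopper-Pearson 95% interval of 0.479 to 14.3, which covers counting error only. Differences within intervals of that width are not detectable at this depth.

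Neurod6 ranged from 29.5 to 94.3 CPM in empty HA-negative libraries (median 38.7) and from 3.95 to 59.3 in empty HA-positive ones (median 28.4). With g4 it ranged from 49.2 to 86.4 CPM (median 64.4) and from 30.9 to 91.5 (median 47.8). Its fractions overlapped with both vectors, and the log2 fold change of HA-positive against HA-negative over both was -0.57 ± 0.24 (95% interval -1.04 to -0.11, adjusted p 0.104). Without the HA-positive libraries under 10000 genes it was -0.27 ± 0.21, whereas without animal 19 (-0.78 ± 0.26, adjusted p 0.0357) or 23 (-0.78 ± 0.26, adjusted p 0.0424) it was called.

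Tbr1 was 49.8 to 112.4 CPM (median 61.1) in empty HA-negative and 0 to 77.3 (median 39.4) in empty HA-positive libraries. With g4 it was 56.2 to 85.8 CPM (median 68.1) and 42.7 to 119.9 (median 62.4). The fractions overlapped, and the log2 fold change over both vectors was -0.51 ± 0.24 (95% interval -0.98 to -0.033, adjusted p 0.179). By limma voom it was -0.94 ± 0.31 and was called (adjusted p 0.0372).

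Neurod2 was 8.11 to 73.1 CPM (median 52.4) in empty HA-negative and 20.5 to 59.3 (median 35.9) in empty HA-positive libraries. With g4 it was 27.6 to 58.4 CPM (median 50.4) and 7.73 to 53.9 (median 30.2). Its fractions overlapped too, and HA-positive was the higher one in 4 of 7 animals with the empty vector. The log2 fold change over both vectors was -0.34 ± 0.25 (95% interval -0.83 to 0.16, adjusted p 0.442).

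**Figure D2:**
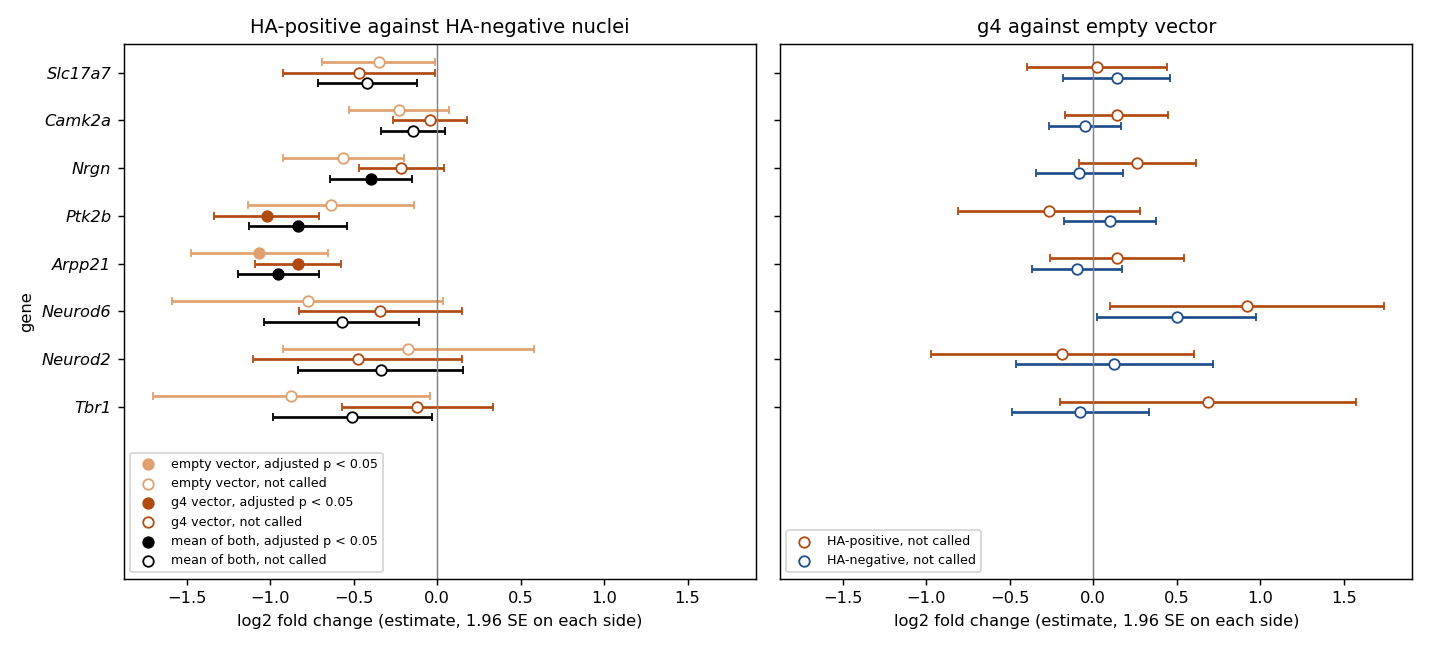
Log2 fold change (horizontal axis) of each gene (vertical axis) in HA-positive against HA-negative nuclei on the left and in g4 against empty vector on the right. Bars are approximate 95% intervals from the SE, and filled points have an adjusted p under 0.05. On the left all points lie below 0 and those of Arpp21 are filled for both vectors; on the right all points are open.

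The fractions also differed in other cell types, and those values stand beside the falls of Arpp21, Ptk2b and Nrgn. Markers of inhibitory neurons rose in HA-positive nuclei for 12 of 15 tested genes, where 6.63% of all genes were called higher, and fell for 0. Gad1, which encodes a GABA-synthesizing enzyme, had a log2 fold change of 1.74 ± 0.14, Gad2 of 0.85 ± 0.11 and the GABA vesicle transporter gene Slc32a1 of 1.32 ± 0.17 over both vectors. The summed inhibitory markers were 1011 to 1471 CPM in the HA-negative and 1951 to 4676 in the HA-positive libraries. The summed level of the 8 excitatory genes was 1677 to 2371 CPM in HA-negative and 873.6 to 1935 in HA-positive libraries, and that of 12 pan-neuronal genes was 4149 to 5221 and 4381 to 5683. Oligodendrocyte markers fell for 10 of 10 tested genes, Mbp among them (-1.64 ± 0.16). Oligodendrocyte precursor markers fell for 4 of 4 and microglia markers for 6 of 6, and 0 of these markers rose. Astrocyte markers did not share this pattern. Of 6 tested, 1 fell and 0 rose, and 4 had higher estimates (median 0.090). Summed astrocyte markers were 1078 to 1441 CPM in HA-negative and 618.3 to 1328 in HA-positive libraries with the empty vector. With g4 they were 1084 to 1566 and 888.1 to 2254 CPM. Summed microglia markers were 249 to 616.5 CPM in HA-negative libraries, and the defining gene Cx3cr1 was at 0 in 7 of 7 empty and 6 of 7 g4 HA-positive libraries. The part of these shifts in the differences of the 8 genes was not tested.

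Striatal projection neurons express both Arpp21 and Ptk2b, and of 11 tested markers of these neurons 10 fell in HA-positive nuclei and 0 rose. Ppp1r1b, which encodes the dopamine-regulated phosphatase inhibitor DARPP-32, had a log2 fold change of -3.86 ± 0.43, the dopamine receptor gene Drd1 of -2.12 ± 0.29 and Drd2 of -3.91 ± 0.64. The labels give motor cortex as the tissue, and Ppp1r1b was present in all HA-negative libraries, at 15.7 to 117 CPM with the empty vector and 20.2 to 83.6 with g4. It was at 0 in 4 of 7 empty and 3 of 7 g4 HA-positive libraries. The sum of the 14 listed markers was 1047 to 2597 CPM in empty HA-negative and 384.2 to 1960 in g4 HA-negative libraries, against 221.4 to 386.4 and 253.8 to 727.6 in the HA-positive ones.

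Within HA-negative nuclei, the highest Arpp21 levels were in libraries with a high striatal sum, while the lower ones did not keep to its order. With the empty vector the sum was highest in animals 21 (2597 CPM), 22 (2105) and 19 (1689), and the same 3 animals had the highest Arpp21 levels, at 447.1, 411.3 and 483.1 CPM. Among the others, animal 23 had a sum of 1154 CPM and Arpp21 at 328.5 CPM, above animal 18 with a sum of 1459 and Arpp21 at 309.5. With g4 the sum was highest in animals 22 (1960 CPM), 21 (1914), 23 (1736) and 19 (1597), where Arpp21 was 415.6, 394.6, 362.8 and 339.4 CPM. The g4 sums of animals 20, 18 and 17 were 1117, 418.2 and 384.2 CPM, and their Arpp21 levels of 266.7, 262.6 and 297.8 CPM did not follow that order.

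Ptk2b followed the striatal sum only in part, and Slc17a7 did not rise with it. In g4 HA-negative libraries the lowest values of both, 156.2 CPM for Ptk2b and 205.5 for Slc17a7, were those of animal 21, whose sum was the second highest. The highest Ptk2b levels with g4, 235.9, 208.5 and 198.2 CPM, were those of animals 19, 22 and 23, whose sums were also high. Among empty HA-negative libraries, Ptk2b was highest in animal 21 (242.1 CPM) and lowest in animal 17 (133.4), as was the sum. It was only 148.2 CPM in animal 22, however. Slc17a7 was lowest in the empty HA-negative libraries of animals 19 (243.5 CPM), 21 (262.9) and 22 (294.6), which had the highest sums. The HA-negative sums of 384.2 and 418.2 CPM lay above those of 6 g4 HA-positive libraries (253.8 to 337.5 CPM) and below that of animal 19 (727.6). The part of striatal nuclei in the differences of Arpp21 and Ptk2b was not tested.

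**Figure D3:**
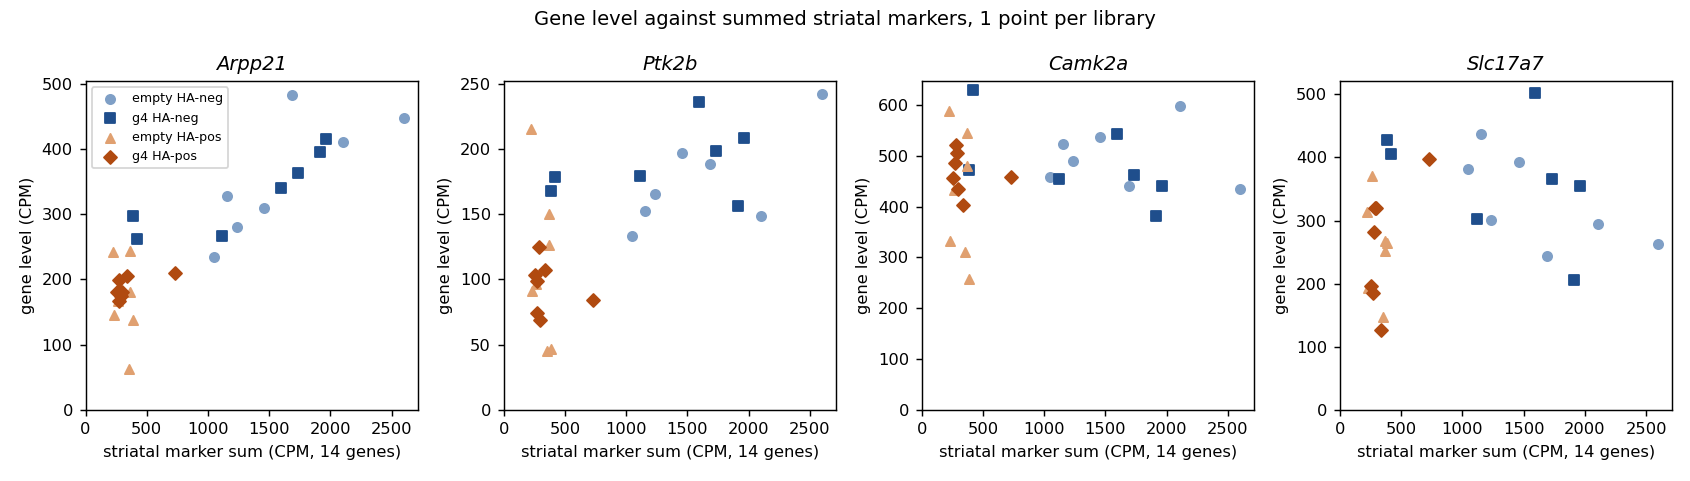
Level of Arpp21, Ptk2b, Camk2a and Slc17a7 (vertical axes, CPM) against the sum of 14 striatal markers (horizontal axis, CPM), 1 point per library and 1 symbol per group. The 5 highest Arpp21 values, 394.6 to 483.1 CPM, belong to HA-negative libraries with sums of 1689 to 2597, and the HA-positive libraries lie at sums of 221.4 to 727.6.

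A ratio to Slc17a7 within the same library does not depend on the scaling. Arpp21 counts were 1.17 ± 0.529 times those of Slc17a7 in empty HA-negative and 0.649 ± 0.183 times in empty HA-positive libraries (SD, n = 7). With g4 the ratios were 0.998 ± 0.45 and 0.837 ± 0.41, within their spread. The ratio was lower in HA-positive nuclei in 6 of 7 animals with the empty vector and in 5 of 7 with g4. For Camk2a the ratio was 1.55 ± 0.315 and 1.69 ± 0.443 with the empty vector and 1.37 ± 0.279 and 2.01 ± 0.735 with g4, and it was lower in HA-positive nuclei in 4 of 7 and 1 of 7 animals. For Ptk2b it was 0.564 ± 0.213 and 0.423 ± 0.181 with the empty vector and 0.54 ± 0.123 and 0.426 ± 0.23 with g4, within their spread, and lower in HA-positive nuclei in 5 of 7 animals with each vector. For Nrgn it was 1.79 ± 0.313 and 1.55 ± 0.367 with the empty vector, lower in 5 of 7 animals, but 1.57 ± 0.284 and 2.08 ± 0.918 with g4, lower in 2 of 7. Relative to Slc17a7, Nrgn thus had a higher mean in g4 HA-positive nuclei, within the spread. Whether the genes differed from one another in their shift was not tested.

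Related genes are given from lists, by the number called over both vectors, where 7.04% of all genes were called lower and 6.63% higher. Of 10 other genes of excitatory neurons, 4 fell and 0 rose in HA-positive nuclei, with a median log2 fold change of -0.42. Camkv, a kinase-like calmodulin-binding protein of synapses, had -1.17 ± 0.14, the spine scaffold gene Baiap2 -0.98 ± 0.15 and the synaptic vesicle gene Sv2b -0.56 ± 0.11. Of 19 calcium and calmodulin signalling genes, 6 fell and 2 rose (median -0.13). Camkv is counted there as well, the calmodulin-binding gene Pcp4 fell by 1.36 ± 0.19, and Rcan2, a regulator of the calmodulin-dependent phosphatase calcineurin, rose by 1.14 ± 0.16. Of 5 genes listed beside Arpp21, 3 fell and 0 rose (median -0.35). They were the R3H-domain genes R3hdm1 (-0.35 ± 0.10) and R3hdm4 (-0.72 ± 0.24), and Arpp19 (-0.44 ± 0.13), which resembles Arpp21 in name only. Of 10 tested relatives and partners of Ptk2b, 1 fell and 0 rose (median 0.0038), a share near that over all genes, and it was Ptk2, the focal adhesion kinase gene (-0.48 ± 0.15).

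The glutamate supply genes had a positive median, unlike Slc17a7. Of 8 tested, 4 rose and 0 fell (median 0.26), with the glutamine transporter gene Slc38a1 at 0.66 ± 0.11 and the aspartate aminotransferase genes Got1 at 0.64 ± 0.12 and Got2 at 0.45 ± 0.12. Inhibitory neurons, which make GABA from glutamate, also express these genes. The 10 tested forebrain transcription factor genes other than Neurod6, Neurod2 and Tbr1 had a median of -0.084. Of these 2 fell, among them Nfia (-1.12 ± 0.29), also a factor of glial cells, and 1 rose, the upper-layer gene Cux2 (0.63 ± 0.19).

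**Figure D4:**
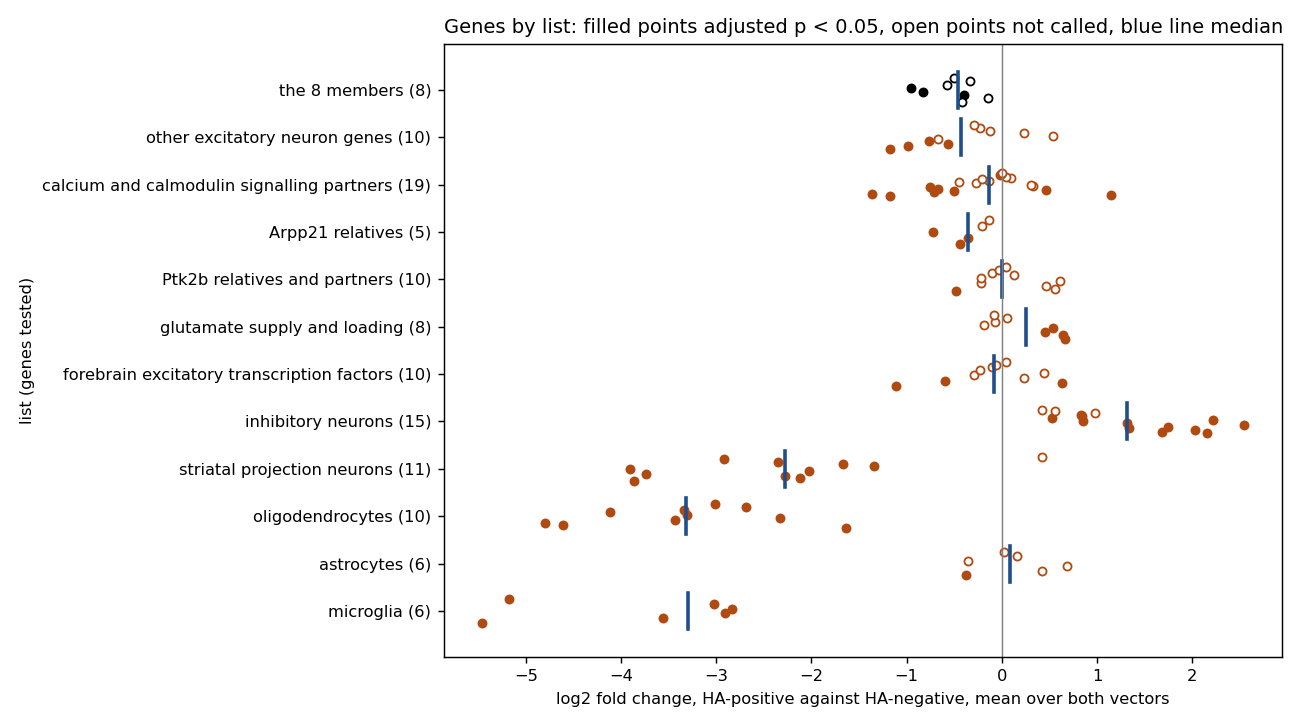
Log2 fold change of HA-positive against HA-negative nuclei over both vectors (horizontal axis) for each tested gene of a list (vertical axis, number tested in brackets); filled points have an adjusted p under 0.05 and blue lines are medians. The 8 genes lie left of 0, as do the oligodendrocyte and microglia markers (medians -3.32 and -3.29), while the 15 inhibitory markers lie to the right.

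The second question was what the g4 vector changed, against the empty vector, in each fraction. In HA-positive nuclei 0 of the 8 genes were called by edgeR, as were 0.0599% of all 5011 genes tested, and 6 of 8 estimates were positive, with a median log2 fold change of 0.14. In HA-negative nuclei 0 of the 8 were called (0.0% of 6262 genes) and the median was 0.025. DESeq2 and limma voom also called 0 of the 8 in both fractions. Markers of other cell types had 0 calls in HA-positive nuclei. Estimates were lower for 12 of 14 tested inhibitory markers (median -0.40). They were higher for 5 of 5 tested astrocyte markers (median 0.61) and 2 of 2 tested oligodendrocyte markers (median 1.84). The oligodendrocyte list held 11 markers, and the others had too few counts to be tested in this comparison. The summed oligodendrocyte markers were 61.4 to 137.1 CPM in empty HA-positive libraries. With g4 they were 1424 CPM in the HA-positive library of animal 19, against 100.5 to 206 in the rest of its group. The summed inhibitory markers were 3406 to 4676 CPM in empty and 1951 to 3907 in g4 HA-positive libraries. The g4 value of 1951 CPM was also that of animal 19, and the next lowest was 2565. The part of these markers in the estimates of the 8 genes was not tested. At an unadjusted p under 0.05, 1 of the 8 stood out in each fraction, where 6.69% and 3.77% of all genes did, and it was Neurod6 both times.

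For Slc17a7 the log2 fold change in HA-positive nuclei was 0.021 ± 0.21 (95% interval -0.40 to 0.44), and for Arpp21 0.14 ± 0.20 (-0.26 to 0.54). For Camk2a it was 0.14 ± 0.16 (-0.17 to 0.45) in HA-positive and -0.049 ± 0.11 (-0.26 to 0.16) in HA-negative nuclei. Changes inside these intervals cannot be told from 0 here.

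Neurod6 was higher with g4 in 6 of 7 animals in each fraction. Its mean was 28.9 ± 19.2 CPM in empty and 53.3 ± 21.9 in g4 HA-positive libraries (SD, n = 7), and 49.1 ± 23.2 and 69.4 ± 15.7 in the HA-negative ones, with overlapping groups. The log2 fold change was 0.92 ± 0.42 in HA-positive nuclei (unadjusted p 0.0362, adjusted p 0.73 by edgeR) and 0.50 ± 0.24 in HA-negative nuclei (unadjusted p 0.0449, adjusted p 0.999), and both failed the adjustment. In HA-positive nuclei it was 0.72 ± 0.45 without the g4 library of animal 19, where Neurod6 was highest at 91.5 CPM, and 0.50 ± 0.34 without the libraries under 10000 genes.

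Tbr1, whose 3′ UTR held the match shown above, had a log2 fold change with g4 of 0.69 ± 0.45 in HA-positive (95% interval -0.20 to 1.57, adjusted p 0.822) and -0.078 ± 0.21 in HA-negative nuclei (-0.49 to 0.33, adjusted p 0.999). The difference between the g4 effects in the fractions was called for 0 of the 8 genes by edgeR, DESeq2 and limma voom (0.0% of all 7197 by edgeR), and 0 lay below an unadjusted p of 0.05, as 4.99% of all genes did. The estimates ran from -0.37 ± 0.30 for Ptk2b to 0.77 ± 0.48 for Tbr1, whose 95% interval was -0.17 to 1.72. In the related lists 0 genes were called in any of these 3 comparisons.

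The 8 genes varied together only in part. Pearson's r was taken across the 28 libraries between a gene's log2 CPM and the mean of the other 7. It was highest for Nrgn (0.789) and Slc17a7 (0.672) and lowest for Tbr1 (0.237) and Neurod2 (0.222). Tbr1 and Neurod2 have few counts, as does Neurod6, whose r was 0.53. With group means removed, r was 0.718 for Nrgn, 0.564 for Slc17a7, 0.202 for Arpp21 and -0.121 for Tbr1. Between single pairs over the 28 libraries, r was highest for Ptk2b with Arpp21 (0.853) and Camk2a with Nrgn (0.821), followed by Neurod6 with Tbr1 (0.728). It was lowest for Camk2a with Tbr1 (-0.11). The r of these pairs with group means removed were, in the same order, 0.712, 0.795, 0.642 and -0.387. Among 7189 other genes, those most like the mean of the 8 were Aplp1 (r = 0.881), which encodes an amyloid precursor-like protein, the sodium/calcium exchanger gene Slc8a2 (0.879), the neuronal pentraxin gene Nptx1 (0.829), Pllp (0.826) and Gatm (0.825). Pllp and Gatm are expressed by oligodendrocytes, whose markers fell in the HA-positive libraries. With group means removed, the order was Slc8a2 (0.827), R3hdm2 (0.818), a relative of Arpp21, the proline transporter gene Slc6a7 (0.792), the calmodulin-dependent phosphodiesterase gene Pde1a (0.77) and Aplp1 (0.753). These r describe libraries that share animals, groups and depth.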

How the data were processed

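RNA-seq counts of sorted nuclei were analysed for 28 libraries from 7 mice. The deposited values are unnormalized counts of reads by gene, per the labels, and each is a whole number. Which aligner, counter or strand setting was used, and whether reads carried molecular identifiers, is not given in the sources used here. The build is GRCm38 per the submitters' processing notes. Cells that read NA were taken as 0 counts, and 1 of 41550 entries named no gene, held 0 counts and was dropped. Groups came from the sample titles. For animals 21, 22 and 23 the columns carry 22, 23 and 24, and the sample descriptions tied them to their samples. The 8 genes and the related lists were chosen with earlier results of these data known.

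Gene positions, exon lengths and 3′ UTRs came from the GENCODE annotation of GRCm38 (41474 identifiers matched). Each comparison was fitted on the whole table with edgeR 4.0.16 under R 4.3.3 (robust quasi-likelihood fit, two-sided, with TMM factors and filterByExpr given the groups), using only the groups compared, or all 28 libraries for means and differences over vectors. P-values were Benjamini-Hochberg adjusted over all tested genes and called under 0.05. The likeness of genes was taken on log2(CPM + 1). The fits were tested on simulated data with known changes. Alternatives were DESeq2 1.42.0, limma 3.58.1 voom, RLE factors, no filter on low counts, leaving out ribosomal and mitochondrial RNA, doubted libraries or each animal, 1 fit over all libraries, the animal as a block and, chosen after seeing the data, scaling to 12 pan-neuronal genes. Libraries with the same number come from the same animal, per the labels, so the block pairs them, and deviations of paired libraries from their group means correlated at -0.107 to 0.154. At 248612 to 902944 counts per library, genes with few counts are measured with low precision. Intervals on counts cover counting error only. The 95% intervals of log2 fold changes were made from the estimate and its SE by a normal approximation. They can therefore leave out 0 where the quasi-likelihood test has an unadjusted p above 0.05. For Slc17a7 between fractions with the empty vector the interval was -0.69 to -0.010, at an unadjusted p of 0.0525 in that test. Of each list, at most the 3 genes with the smallest p in a comparison and the defining markers were named. A result of the transcription factor list is not reported here. For 1 inhibitory marker of the 16 listed no entry was matched by name.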

Additional observations from a re-analysis of the deposited data

Results flagged for a closer look

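The g4 HA-positive library of animal 23 had a Tbr1 level of 119.9 CPM, while the other 6 libraries of its group lay at 42.7 to 75.8 CPM. Its gap to the nearest library was 0.571 of the group's range, past Dixon's critical value for 7 samples. The same was looked at in 32 sets of 7 libraries (8 genes in 4 groups), and chance marks about 5% of such sets.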

How the results depend on the processing

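With the empty vector, 1 of the 8 genes was called lower in HA-positive nuclei. It was 2 with the animal as a replicate block and with scaling to pan-neuronal genes, 3 with no filter on low counts and with all 28 libraries in 1 fit, and 1 to 2 when each animal was left out. Over both vectors the count of 3 became 5 with pan-neuronal scaling (Slc17a7 and Neurod6 added), and 2 to 4 when each animal was left out. The block changed no other call. With g4 the count was 2, and in both g4 comparisons and their difference 0, under all alternatives run. The cause of these changes was not tested.

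Slc17a7 in HA-positive nuclei changed sign for g4 with the block (-0.017) and without the g4 library of animal 19 (-0.12), and Neurod2 with the empty vector by limma voom (0.042). When each animal was left out, estimates near 0 changed sign. For g4 in HA-positive nuclei the ranges were -0.18 to 0.14 for Slc17a7, -0.0042 to 0.27 for Arpp21 and -0.38 to 0.015 for Neurod2. In HA-negative nuclei they were -0.016 to 0.23 for Slc17a7, -0.11 to 0.024 for Camk2a, -0.14 to 0.0017 for Nrgn, -0.030 to 0.28 for Neurod2 and -0.19 to 0.097 for Tbr1. For the fractions they were -0.37 to 0.068 for Neurod2 with the empty vector and -0.085 to 0.057 for Camk2a with g4, and for the difference between the g4 effects -0.22 to 0.0079 for Slc17a7.

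Over all genes, pan-neuronal scaling moved the median log2 fold change between fractions by -0.11, -0.10 and -0.099 (empty, g4, both). It moved the split of genes called higher and lower from 194 and 194 to 129 and 240, from 208 and 193 to 135 and 262, and from 477 and 507 to 324 and 693. The count of called genes was 388 with the empty vector and became 660 with DESeq2, 661 with no filter, 612 in 1 fit of all libraries and 251 to 371 without 1 animal (lowest without animal 19). With g4 the count of 401 became 218 to 422 without 1 animal (lowest without animals 20, 21 and 22). Over both vectors 984 became 1584 with no filter. For g4 in HA-positive nuclei 3 became 1 with the block and with voom, 13 with DESeq2, 28 with no filter, 5 without the library of animal 19, 0 without the libraries under 10000 genes and 8 in 1 fit. For g4 in HA-negative nuclei DESeq2 called 1 gene, and for the difference the fit with no filter called 3, none of them among the 8. Low depth limits Neurod6, Neurod2 and Tbr1 most.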
